A study of Xenopus laevis with 7 samples.

Results

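Chordin, noggin and follistatin are secreted proteins that bind growth factors of the TGF-beta superfamily outside the cell and keep them from their receptors. They were represented by 7 of the 44421 transcripts in the table of the early Xenopus laevis gastrula. The transcripts were taken by name (chrd, nog or fst, whatever the copy suffix) or, where the table gives only a model number, by a human match to CHRD, NOG or FST. Chordin had 3 (Xelaev18027420m, Xelaev18027421m and Xelaev18029538m), noggin 2 (nog.L and nog.1) and follistatin 2 (fst.L and fst.S). Messenger RNA came from wild type Nasco frog embryos at stage 10.5, from 3 samples of dissected dorsal lips, 3 of ventral lips and 1 of whole embryos, with no treatment named other than dissection. Neither the number of embryos pooled in a sample nor separate clutches are given by the labels, so each p-value speaks of the spread among these libraries alone, which could be technical.

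In the embryo, bone morphogenetic proteins (BMPs) specify ventral mesoderm and epidermis, and the Spemann organizer in the dorsal lip secretes antagonists that bind them. Chordin and noggin bind BMPs directly, and chordin can be cut by tolloid proteases, which release the ligand. Follistatin is an activin-binding protein that also binds BMPs. Depletion of all 3 proteins together in the related frog Xenopus tropicalis is known to abolish most dorsal structures, whereas single depletions have milder effects.

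The lip libraries carry experiment numbers, and the whole embryo library belongs to experiment 1. The lips of experiment 1 stood apart: 73.2% of 16514 tested transcripts differed between them and the lips of experiments 2 and 3 (limma, adjusted p under 0.05). Results are therefore also given for experiments 2 and 3 alone and with the experiment as a block. Of 13 dorsal lip marker transcripts, all 13 were higher in every dorsal than in every ventral lip, against 3.09% of all tested transcripts. Of 12 ventral lip marker transcripts 11 were higher in every ventral lip, against 3.81% of all tested. Summed levels of 10 epidermal marker transcripts were 63.4 to 73.7 RPKM in dorsal and 188 to 339 RPKM in ventral lips, and those of 4 endodermal transcripts 68.1 to 117 RPKM in dorsal and 96.1 to 103 RPKM in ventral lips. Their part in the results was not tested, and in such bulk samples fewer cells of a type cannot be told apart from less RNA per cell. RPKM scales reads to transcript length and to the mapped reads of the library, so levels can be compared between transcripts. In the lips, 1 read over 1 kb was worth 0.0284 to 0.0369 RPKM, and 26438048 to 34376394 reads were recovered per library.

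Chordin was by far the most abundant of the 3 genes. Its transcripts together stood at 674, 561 and 633 RPKM in the dorsal lips of experiments 1, 2 and 3, against 1.30, 0.748 and 0.512 RPKM in the ventral lips. The dorsal and ventral sums lay far apart in every experiment. Chordin made up 90.3% to 93.1% of the summed level of the 3 genes in dorsal lips. Noggin followed at 36.6, 56.6 and 57.0 RPKM in dorsal lips against 0.435, 0.276 and 0.316 RPKM in ventral lips. Follistatin was lowest at 12.9, 3.57 and 6.11 RPKM in dorsal lips and 0.391, 0.0607 and 0.0229 RPKM in ventral lips. The order of the 3 genes was the same in each dorsal lip and in the whole embryo.

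**Figure D1:**
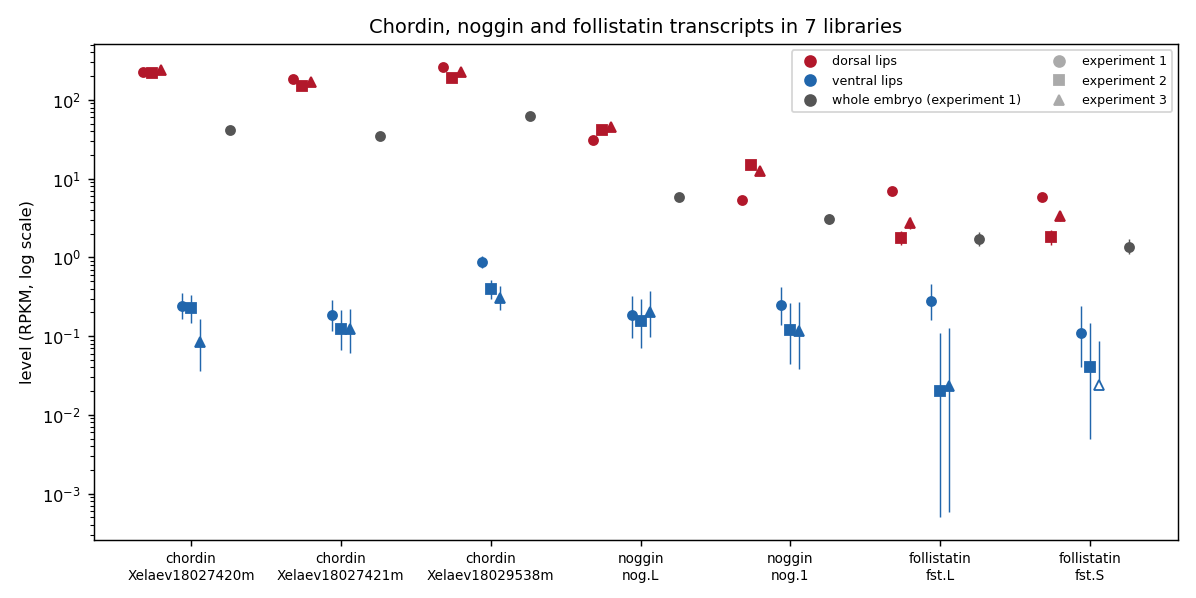
Level of each transcript in RPKM on a log axis in dorsal lips, ventral lips and whole embryo, with the symbol giving the experiment and bars the exact 95% Poisson interval of the reads, which covers counting error only. The open symbol is the library with 0 reads, drawn at the level of 1 read. Every dorsal lip lies above every ventral lip for all 7 transcripts.

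The chordin transcript Xelaev18027420m was steady in dorsal lips, at 229, 222 and 240 RPKM, and nearly absent from ventral lips, at 0.244, 0.228 and 0.0845 RPKM. These ventral levels rest on 30, 25 and 8 reads, against 24829 to 27985 reads in dorsal lips. Within an experiment the dorsal lip was therefore 940 times (95% interval 658 to 1393), 974 times (660 to 1506) and 2847 times (1445 to 6594) above the ventral lip. These intervals are exact binomial and cover counting error only, and the higher ratio of experiment 3 rests on 8 ventral reads. Xelaev18027421m stood at 182, 150 and 167 RPKM in dorsal lips and at 0.188, 0.124 and 0.122 RPKM in ventral lips. Its ratio was 970, 1204 and 1371 in the 3 experiments, with overlapping intervals.

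The third chordin transcript, Xelaev18029538m, was as abundant dorsally, at 263, 189 and 225 RPKM, but was the highest of the 7 in every ventral lip, at 0.871, 0.396 and 0.306 RPKM. With 126, 51 and 34 ventral reads its ratio was 302 (253 to 362), 478 (363 to 642) and 737 (527 to 1064). For this transcript the interval of experiment 1 lay below those of experiments 2 and 3. By mean dorsal level the chordin transcripts ranked 217, 336 and 222 among 16514 tested transcripts. The dorsal excess of each passed the limma test, with a log2 fold change of 8.404 (SE 0.138) for Xelaev18027420m, 8.01 (SE 0.130) for Xelaev18027421m and 7.81 (SE 0.243) for Xelaev18029538m. Adjusted p was 1.49e-05, 1.49e-05 and 0.000213, and over all alternatives tried it stayed at or below 0.00784.

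That test was fitted to log2(RPKM + 0.5), and a transcript entered it when its level averaged 1 RPKM or more across the 6 lips. Ventral chordin levels lay near or below 0.5, so these fold changes are smaller than the ratios within an experiment. With limma voom on recovered reads they were 10.36 for Xelaev18027420m, 10.13 for Xelaev18027421m and 8.85 for Xelaev18029538m. Each of the 7 transcripts had a ventral mean below 1 RPKM and entered through its dorsal level, so how many of them passed is no support in itself. Of all tested transcripts, 0.248% were called higher in dorsal lips, 2.37% with the experiment as a block and 2.85% in experiments 2 and 3 alone. Every dorsal lip lay above every ventral lip for 3.09% of tested transcripts, a description that also holds for each of the 7.

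Noggin binds BMPs with high affinity and is expressed in the organizer. Its transcript nog.L stood at 31.3, 41.8 and 44.6 RPKM in dorsal lips and at 0.185, 0.156 and 0.2004 RPKM in ventral lips. The ventral values rest on 12, 9 and 10 reads. The dorsal lip was 169 times (96.7 to 328), 268 times (141 to 587) and 223 times (121 to 465) above the ventral lip, with overlapping intervals. The log2 fold change was 5.85 (SE 0.181, limma adjusted p = 0.000213) and passed under every alternative tried, with adjusted p of at most 0.00784.

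The second noggin transcript, nog.1, was lower and less even. It stood at 5.32, 14.8 and 12.4 RPKM in dorsal lips, so that the dorsal lip of experiment 1 was the low one. In ventral lips it stood at 0.2499, 0.120 and 0.116 RPKM, from 14, 6 and 5 reads, and here the library of experiment 1 was the high one. The ratio was 21.3 (12.5 to 39.4) in experiment 1, against 123 (56.2 to 336) in experiment 2 and 107 (45.4 to 330) in experiment 3. The log2 fold change of 3.99 (SE 0.389) passed the limma test (adjusted p = 0.0219) and also with the block (adjusted p = 0.00607) and in experiments 2 and 3 alone (4.50, adjusted p = 1.53e-05). It did not pass without dorsal lip replicate 2 (adjusted p = 0.112), dorsal lip replicate 3 (0.194), ventral lip replicate 2 (0.158) or ventral lip replicate 3 (0.191). Nor did it pass with limma voom on recovered reads (adjusted p = 0.0525), which called 0.224% of tested transcripts higher in dorsal lips. The adjusted p over its 14 alternatives lay between 1.53e-05 and 0.194.

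Other noggin genes did not contribute. The transcripts nog2.L, nog2.S, nog4.L and nog4.S, which also match human NOG but carry their own symbols, had 1, 0, 0 and 0 reads over the 7 libraries together.

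Follistatin was the lowest and most variable. The transcript fst.L stood at 7.01, 1.77 and 2.75 RPKM in dorsal lips and at 0.282, 0.0198 and 0.0229 RPKM in ventral lips. The ventral levels of fst.L rest on 16, 1 and 1 reads. Its partner fst.S stood at 5.92, 1.80 and 3.35 RPKM in dorsal lips and at 0.109, 0.0409 and 0 RPKM in ventral lips, from 6, 2 and 0 reads. For both copies the dorsal lip of experiment 1 was the high one, and no ventral lip reached a dorsal one.

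Measured as a ratio in each experiment, fst.L was 24.9 times higher in the dorsal lip in experiment 1 (15.1 to 43.9), 89.3 times in experiment 2 (15.6 to 3564) and 120 times in experiment 3 (21.2 to 4784). The ratios of experiments 2 and 3 have 1 ventral read each, and their size was not resolved at this depth. For fst.S the ratio was 54.2 (24.6 to 149) and 44.1 (11.9 to 370.0) in experiments 1 and 2. In experiment 3 the ventral library had 0 reads of fst.S, so only the lower end of the interval, 38.0, can be given. Set against the level of 3 reads in that ventral library, the dorsal level was 47.2 times higher, which is not a lower bound.

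Without a block follistatin did not pass the limma test: the log2 fold change was 2.68 (SE 0.476, adjusted p = 0.191) for fst.L and 2.81 (SE 0.389, adjusted p = 0.0901) for fst.S. With the experiment as a block both passed, with adjusted p of 0.00607 and 0.00779. Both also passed in experiments 2 and 3 alone, with log2 fold changes of 2.38 (limma adjusted p = 0.000698) and 2.52 (0.00172). Over 14 alternatives the adjusted p of fst.L ran between 0.000698 and 0.877 and that of fst.S between 0.00172 and 0.556. In the authors' deposited table, which rests on experiments 2 and 3, the adjusted p-value was 6.26e-10 for fst.L and 2.39e-05 for fst.S.

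**Figure D2:**
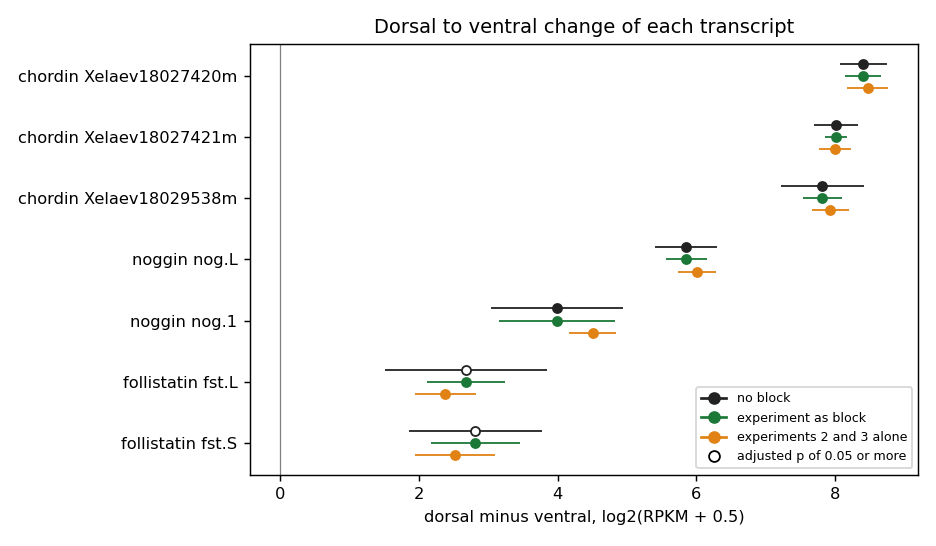
Dorsal minus ventral difference of each transcript on the log2(RPKM + 0.5) scale with its 95% interval, without a block, with the experiment as a block, and in experiments 2 and 3 alone. Filled symbols passed at an adjusted p of 0.05; only the values of fst.L and fst.S without a block are open. Because of the pseudocount the scale understates the change of every transcript shown, as ventral levels lay near or below 0.5.

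Ventral levels of these genes were low, and for most of the transcripts the counting intervals of the ventral lips overlapped. Only for Xelaev18029538m and fst.L did the interval of experiment 1 lie above those of experiments 2 and 3. The ventral lip of experiment 1 held the highest ventral value for 6 of the 7 transcripts, and ventral lip 3 for nog.L. The share of all tested transcripts with this order was not taken, so the count does not set these genes apart. For Xelaev18027420m the ventral values of experiments 1 and 2 rest on 30 and 25 reads, with overlapping counting intervals. In the same ventral lip the dorsal marker transcripts summed to 65.5 RPKM, against 16.8 and 22.1 RPKM in the ventral lips of experiments 2 and 3. Ventral marker transcripts were highest there too, at 1379 RPKM against 725 and 816 RPKM. The epidermal ones summed to 339 RPKM against 188 and 211 RPKM, and the endodermal ones to 103 RPKM against 101 and 96.1 RPKM. The part of these differences in the values was not tested.

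Xenopus laevis is allotetraploid and carries L and S subgenomes, so a gene can be present in several copies. The RefSeq genes of a different build, v10.1, include chordin as chrd.1.L and chrd.2.L on chromosome 5L and chrd.1.S on 5S, noggin as nog.L on 9_10L and nog.S on 9_10S, and follistatin as fst.L on 1L and fst.S on 1S. The deposited table does not say which chordin model belongs to which of these genes, or whether nog.1 is nog.S. The counting of reads that fit several copies is not given in the sources used here, so differences between copies are uncertain to that degree. Pairs of copies were the .L and .S transcripts of a symbol, or transcripts with only a model number that share a human symbol held by few of them. Pairs of the second kind need not be L and S copies of the same gene. Of 6337 such pairs tested, 76.1% differed in dorsal level (limma, adjusted p under 0.05), so that a level difference within these pairs was the rule.

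In dorsal lips Xelaev18027420m was 1.39 ± 0.119 times Xelaev18027421m (SD, n = 3), with ratios of 1.26, 1.48 and 1.44. Xelaev18027421m was 0.742 ± 0.0499 times Xelaev18029538m, with ratios of 0.692, 0.792 and 0.742. Both level differences passed the limma test (log2 difference 0.47, adjusted p = 0.0208, and -0.43, adjusted p = 0.0244). They did not pass without dorsal lip replicate 2 (adjusted p = 0.187 and 0.145) or dorsal lip replicate 3 (0.207 and 0.218), with log2 differences of 0.43 to 0.54 and -0.48 to -0.38 over the alternatives. The remaining pair, Xelaev18027420m over Xelaev18029538m, had ratios of 0.871, 1.17 and 1.07, and its log2 difference of 0.04 (95% interval -0.33 to 0.42) did not pass (limma adjusted p = 0.789).

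Away from the dorsal lip that pair was less even. Xelaev18027420m was 0.280, 0.576 and 0.276 times Xelaev18029538m in ventral lips and 0.651 times in the whole embryo. The difference between the copies in dorsal to ventral change was 0.59 on the log2 scale (SE 0.204, limma adjusted p = 1.00 without and 0.0382 with the block). Of the design's pairs 0.0316% were called without the block and 1.58% with it. In experiments 2 and 3 alone, where 3.47% were called, the pair did not pass (0.54, limma adjusted p = 0.0673). The 2 pairs with Xelaev18027421m did not pass in any fit. The differences were 0.39 (95% interval 0.05 to 0.73) for Xelaev18027420m over it and 0.20 (95% interval -0.27 to 0.67) for it over Xelaev18029538m. Ventral chordin levels lay near the pseudocount of 0.5, so the size of these differences depends on it. Over Xelaev18029538m it was 1.12 for Xelaev18027420m and 0.82 for Xelaev18027421m with a pseudocount of 0.1. With a pseudocount of 1 it was 0.39 and -0.03. As a ratio, Xelaev18027421m was 0.215, 0.314 and 0.399 times Xelaev18029538m in ventral lips and 0.556 times in the whole embryo.

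Noggin copies differed most in level. The ratio of nog.L to nog.1 was 5.88, 2.83 and 3.61 in dorsal lips, the highest being that of experiment 1. In ventral lips it was 0.740, 1.30 and 1.73, from 14 reads or fewer of each copy, and in the whole embryo 1.87. The level difference in dorsal lips was 1.91 on the log2 scale (SE 0.226, limma adjusted p = 0.00224), and passed under every alternative tried, with adjusted p of at most 0.00723. Because the second noggin transcript is named nog.1 and not nog.S, this pair entered with numbered transcripts added to the pairs after the data were seen. It need not be an L and S pair. The copies' difference in dorsal to ventral change was 1.86 (SE 0.271), with limma adjusted p = 0.129 without the block, 0.0529 with it and 0.00807 in experiments 2 and 3 alone, and 3.5% of pairs were called in that last fit. With these pairs added, 0.0443% were called without the block and 1.6% with it. Over the 12 alternatives the adjusted p lay between 0.00807 and 0.681. Ventral means of 0.180 RPKM for nog.L and 0.162 RPKM for nog.1 were close to each other and below the pseudocount. The difference in change of 1.86 is therefore largely the dorsal level difference of 1.91 again. It was 1.82 with a pseudocount of 0.1 and 1.83 with a pseudocount of 1.

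Follistatin copies were close to each other. The ratio of fst.L to fst.S was 1.18, 0.978 and 0.822 in dorsal lips and 1.26 in the whole embryo. The log2 difference of -0.01 in dorsal level did not pass (95% interval -0.40 to 0.37, limma adjusted p = 0.933), nor did the difference of -0.14 in dorsal to ventral change (95% interval -0.59 to 0.31, limma adjusted p = 1.00). The intervals leave room for a moderate difference either way.

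**Figure D3:**
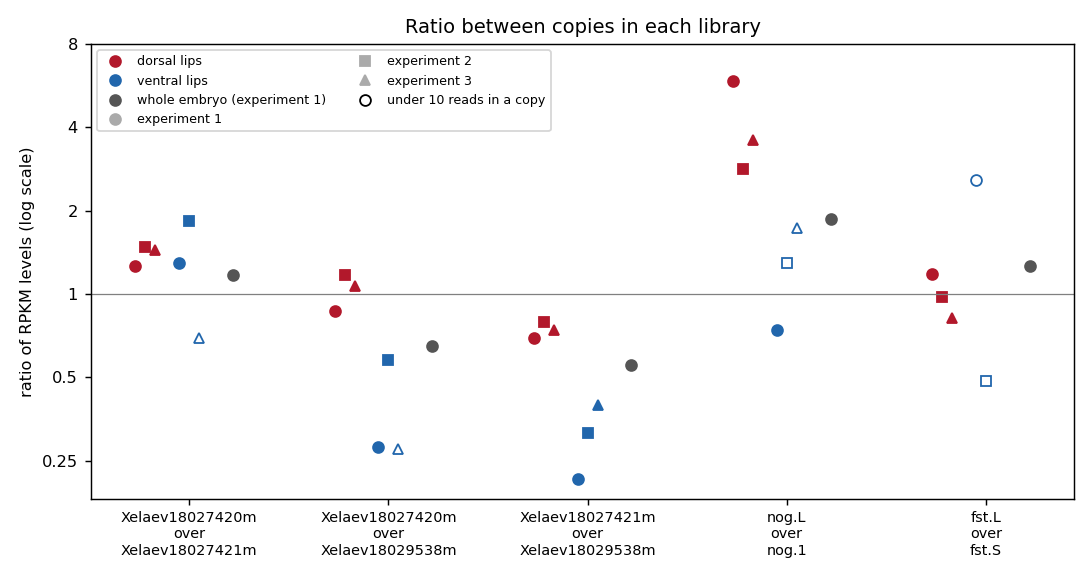
Ratio of RPKM levels between copies in each library on a log axis, in dorsal lips, ventral lips and whole embryo, with the symbol giving the experiment. Open symbols have under 10 reads in a copy, and 1 ratio with 0 reads is left out. The ratio of nog.L to nog.1 is 2.83 to 5.88 in dorsal lips and that of fst.L to fst.S 0.822 to 1.18.

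The 3 genes differed in how their dorsal level varied between experiments. The coefficient of variation over the 3 dorsal lips was 4.03%, 9.65% and 16.3% for the chordin transcripts Xelaev18027420m, Xelaev18027421m and Xelaev18029538m, 17.9% for nog.L and 45.4% for nog.1, and 72.5% for fst.L and 56.3% for fst.S. The median over all tested transcripts was 21.6%, and the 2 copies of follistatin exceeded 96.6% and 91.3% of them. The dorsal lip of experiment 1 held 3.101 times the mean of experiments 2 and 3 for fst.L and 2.30 times for fst.S. It held 0.725 times that mean for nog.L and 0.392 times for nog.1. Chordin stood at 0.990, 1.15 and 1.27 times. The median ratio of all tested transcripts was 0.870, and 36.6% of them had a lower ratio than nog.L, 9.63% a lower one than nog.1, and 97.8% and 95.9% a lower one than fst.L and fst.S. A ratio over 2 was found for 5.82% of tested transcripts and one under 0.5 for 17.4%. The 36 other transcripts called higher in dorsal lips had a median ratio of 1.21, with 0 over 2 and 1 under 0.5. Their call favours an even dorsal level, so this group is not a neutral background.

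**Figure D4:**
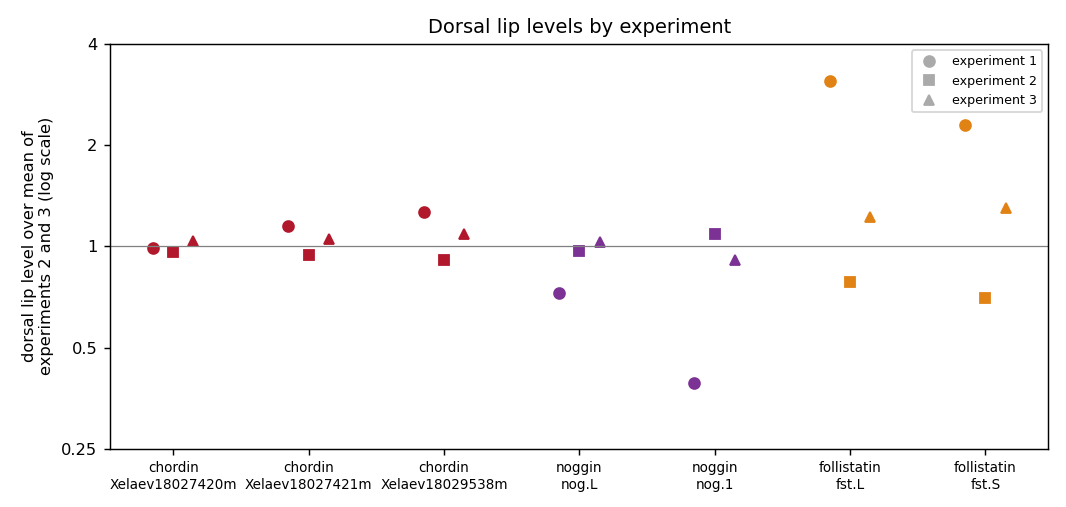
Level of each transcript in the dorsal lips of experiments 1, 2 and 3, divided by its mean over experiments 2 and 3, on a log axis. In experiment 1 the follistatin copies stand at 3.101 and 2.30, chordin transcripts between 0.990 and 1.27, and nog.1 at 0.392.

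Tested over both sides of the embryo, with side as a term, fst.L was higher in the lips of experiment 1 than in those of experiments 2 and 3 by 1.03 on the log2 scale (SE 0.231, limma adjusted p = 0.00599). The median of all tested transcripts was -0.18, so relative to it the difference was 1.205. Of all tested transcripts 26.3% were called higher and 46.9% lower in experiment 1, a split of 4344 to 7741 that became 5746 to 5968 with quantile normalization, where the median was -0.01. For fst.L the call was lost without dorsal lip replicate 1 (0.58, adjusted p = 0.0602). Chordin Xelaev18029538m was also higher in experiment 1 (0.52, SE 0.109, limma adjusted p = 0.00440, at most 0.0460 over the alternatives). With 73.2% of transcripts called in either direction, neither call sets these transcripts apart.

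For fst.S the difference between experiments was 0.67 (SE 0.264, limma adjusted p = 0.0545). It passed with a pseudocount of 0.1 (limma adjusted p = 0.0157), quantile normalization (0.0394) and voom (0.00707). Passing fits also included those without dorsal lip replicate 2 (0.0441), dorsal lip replicate 3 (0.0442) or ventral lip replicate 2 (0.0497). It did not pass with a pseudocount of 1 (0.0706), no filter on low values (0.135) or without ventral lip replicate 3 (0.0956). Leaving out dorsal or ventral lip replicate 1 keeps 1 library of experiment 1, and the difference was then 0.23 or 1.11. The other chordin transcripts did not pass, at 0.09 for Xelaev18027420m and 0.17 for Xelaev18027421m (limma adjusted p = 0.474 and 0.0662), though Xelaev18027421m passed with a pseudocount of 0.1 (adjusted p = 0.0248) and with voom (0.0351). Noggin did not pass over both sides either, at -0.22 for nog.L and -0.49 for nog.1 (limma adjusted p = 0.149 and 0.198). Relative to the median of all tested transcripts these were -0.04 and -0.32. Without ventral lip replicate 1, nog.L stood at -0.46 and nog.1 at -1.27, against a median of -0.18. With voom both passed as lower in experiment 1 (limma adjusted p = 0.00176 and 0.00526), where 7686 of 16514 tested transcripts did. In the other alternatives that keep both libraries of experiment 1, neither passed.

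Whether the dorsal to ventral change itself differed between experiment 1 and experiments 2 and 3 was tested with an interaction term, added after the data were seen. Experiment 1 has 1 dorsal and 1 ventral library, so the spread in this test comes from experiments 2 and 3 alone and is assumed to hold for experiment 1. The change of nog.1 was smaller in experiment 1 by 1.55 on the log2 scale (difference -1.55, 95% interval -2.14 to -0.96, limma adjusted p = 0.0629) and did not pass. None of the other 6 transcripts passed (limma adjusted p of 0.704 or more), which at this size does not show that their change was alike. Of all tested transcripts 0.648% passed.

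The whole embryo library gives the level of these genes in undissected embryos of experiment 1, with 1 library and so no test. In experiment 1 the chordin transcripts stood at 229, 182 and 263 RPKM in the dorsal lip and 0.244, 0.188 and 0.871 RPKM in the ventral lip, against 41.2, 35.2 and 63.3 RPKM in the whole embryo. The whole embryo thus held 18.0%, 19.3% and 24.1% of the dorsal lip level. For nog.L it held 5.81 RPKM or 18.5%, for fst.L 1.72 RPKM or 24.6%, and for fst.S 1.37 RPKM or 23.1%. These 6 transcripts lay at 18.0% to 24.6% of that dorsal lip. Against the mean of all 3 dorsal lips the same 6 spread more widely, from 14.8% for nog.L to 44.8% for fst.L, with fst.S at 37.0% and the chordin transcripts at 17.9%, 21.2% and 28.0%.

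The transcript nog.1 was the highest of the 7 by the measure within experiment 1, at 3.102 RPKM in the whole embryo or 58.3% of the dorsal lip of experiment 1. Against the mean of all 3 dorsal lips its share was 28.7%, next to Xelaev18029538m and below both follistatin copies. The dorsal lip of experiment 1 was the lowest of the 3 for nog.1 and the highest for follistatin. The 36 other transcripts called higher in dorsal lips had a median of 39.7% of the dorsal lip of experiment 1, with an interquartile range of 31.9% to 52.2% and a full range of 12.8% to 137%. By this measure 6 of the 7 transcripts lay below the quartile of 31.9%, and 29 of the 36 lay below nog.1. Against the mean of all 3 dorsal lips the 36 had a median of 46.3% and a lower quartile of 38.1%, and only 7 of them lay below nog.1, so its place among them turned with the choice of dorsal lips. This is a description of 1 library and of transcripts chosen by a test on the same dorsal lips.

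**Figure D5:**
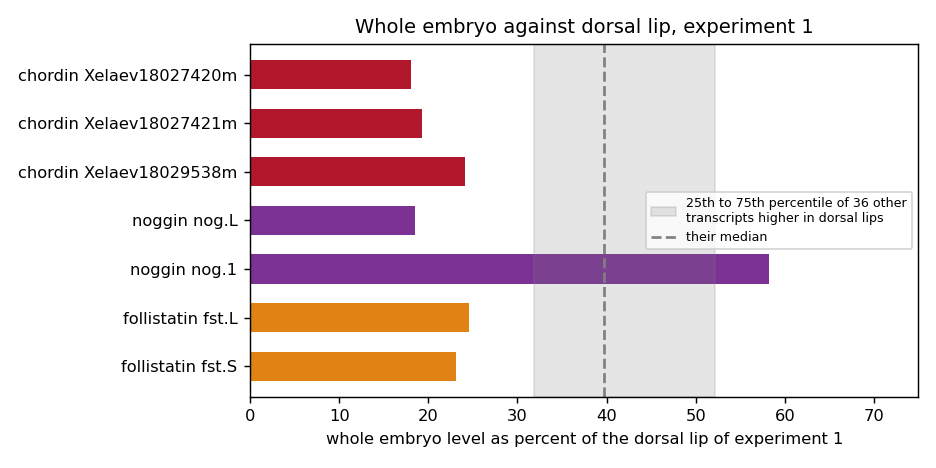
Level of each transcript in the whole embryo as a percentage of its level in the dorsal lip of experiment 1 (bars), with the median and the interquartile range of 36 other transcripts called higher in dorsal lips (dashed line and grey band). Chordin, nog.L and follistatin lie at 18.0% to 24.6% and nog.1 at 58.3%.

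Transcripts with the most similar pattern were sought by Pearson's r over the 7 libraries on log2(RPKM + 0.5). These r values are descriptions: the points share their libraries and fall into dorsal and ventral clusters, so all transcripts with a large dorsal excess correlate. For chordin the nearest were Xelaev18018867m, an Xnr3 transcript of the Nodal family that maternal Wnt signalling activates (r = 0.999 with Xelaev18027420m), and the Wnt receptor transcript FZD7 (Xelaev18047362m, r = 1.00 with Xelaev18029538m). For nog.L the nearest were Xnr3 (Xelaev18018868m, r = 0.996) and the organizer homeobox gene gsc.S (0.993), and for nog.1 tmcc1.S (0.993) and Xelaev18018868m (0.988). The nearest of follistatin included trabd2a.L, whose human match is the Wnt-cleaving protease TIKI1 (0.994 with fst.L), tmem119.L (0.994 with fst.L and 0.993 with fst.S), the neural plate zinc finger gene zic1.L (0.993 with fst.L and 0.994 with fst.S) and the homeobox gene otx1.S (0.994 with fst.S). Another FZD7 transcript, Xelaev18044942m, was also among the 5 nearest of fst.L (0.988). Among the 7 themselves, r was 0.998 to 1.00 between chordin transcripts, 0.985 between noggin copies, 0.990 between follistatin copies, and lowest at 0.837 between nog.1 and fst.L.

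The authors' deposited table of correlation to chordin over 26 RNA-seq samples, some of kinds not analysed here, places the 7 in a similar order. In that deposited table Xelaev18027421m, Xelaev18029538m and nog.L follow the chordin transcript Xelaev18027420m as ranks 2, 3 and 4 of 40499, with coefficients of 0.988, 0.965 and 0.955. There fst.S has rank 26 (0.773), nog.1 rank 28 (0.770) and fst.L rank 274 (0.546). In the authors' deposited table of correlation to bambi, a BMP pseudoreceptor whose expression follows BMP signalling, the chordin and noggin transcripts have coefficients of -0.498 to -0.447, and fst.S and fst.L -0.289 and -0.118. The libraries of this study are part of those samples, so the tables are not independent of the values above.

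Ligands that these proteins bind, and the genes that BMP signalling controls, were counted from fixed lists of symbols. Over all tested transcripts, 0.248% were called higher dorsally and 0.0787% ventrally without the block, and 2.37% and 2.34% with it. Of 9 tested BMP and related ligand transcripts, 2 were called dorsal and 1 ventral, and 2 and 4 with the block, with a median log2 fold change of -0.60 against -0.05 for all tested transcripts. The 2 dorsal ones were copies of admp, a BMP-family ligand made by the organizer itself: admp.S averaged 88.8 ± 33.1 RPKM in the dorsal samples and 0.480 ± 0.478 RPKM in the ventral samples (SD, n = 3 each), and admp.L 36.2 ± 13.6 RPKM dorsally and 0.376 ± 0.228 RPKM ventrally (log2 fold change 5.36, limma adjusted p = 0.00307). The ventral one was admp2.L (-2.68, limma adjusted p = 0.00601). With the block the BMP ligands bmp4.L (-0.74), bmp4.S (-1.09) and Xelaev18018155m, matched to BMP7 (-0.60), were lower in dorsal lips (limma adjusted p = 0.00925, 0.00448 and 0.00143). In dorsal lips bmp4.L and bmp4.S averaged 6.98 and 9.24 RPKM, below nog.L and each chordin transcript. The BMP7-matched Xelaev18018155m averaged 273 ± 90.4 RPKM in dorsal samples and 415 ± 148 RPKM in ventral samples. Its dorsal mean lay above that of each single chordin transcript and below their sum. Its place above Xelaev18027420m came from experiment 1, where its dorsal lip stood at 377 RPKM. In the dorsal lips of experiments 2 and 3 it stood at 214 and 228 RPKM, below chordin Xelaev18027420m at 222 and 240 RPKM. There it still lay above Xelaev18027421m at 150 and 167 RPKM and Xelaev18029538m at 189 and 225 RPKM.

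None of the 8 transcripts of activin, inhibin and related ligands, among them the activins that follistatin binds, reached the mean of 1 RPKM needed for testing. The highest single value among them was 0.1998 RPKM, for inhbb.L in ventral lip 2, and inhba.L was at 0 reads in every library.

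Of 10 tested BMP receptor transcripts, 0 were called dorsal and 1 ventral, and 0 and 3 with the block. The 1 was the pseudoreceptor bambi.L (-3.81, limma adjusted p = 0.00347), which bambi.S (-2.15) and bmpr1a.1 (-0.31) joined with the block (limma adjusted p = 0.0315 and 0.0483). Of 11 tested BMP Smad transcripts 0 passed limma in either direction without the block, and 2 were called ventral with it, both copies of the inhibitory smad7-like (L -1.79 and S -1.60, limma adjusted p = 0.0337 and 0.0391).

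Of 8 tested transcripts on the list of chordin regulators, 0 were called dorsal and 2 ventral, and 0 and 3 with the block. The 2 were copies of sizzled, an inhibitor of the chordin-cutting proteases, with szl.L averaging 0.776 ± 0.507 RPKM in dorsal samples and 37.0 ± 16.5 RPKM in ventral samples, and szl.S 1.02 ± 0.796 RPKM dorsally and 33.9 ± 11.6 RPKM ventrally (SD, n = 3 each). The third was the copy Xetrov90016634m.S of twisted gastrulation, matched to TWSG1, a chordin and BMP partner (-0.56, limma adjusted p = 0.0448 with the block). The tolloid-family transcripts matched to BMP1, Xelaev18018758m with means of 14.5 ± 1.49 RPKM dorsally and 14.6 ± 0.490 RPKM ventrally and Xelaev18020192m with 9.68 ± 2.72 RPKM dorsally and 9.07 ± 3.52 RPKM ventrally, passed in neither fit (log2 fold changes -0.01 and 0.12, limma adjusted p = 0.928 and 0.376 with the block).

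Of 8 other tested secreted antagonist transcripts, 0 passed limma in either direction without the block and 2 were called dorsal and 2 ventral with it. The dorsal ones were copies of cerberus, a head inducer that binds BMP, Nodal and Wnt proteins: cer1.S averaged 109 ± 65.0 RPKM in the dorsal samples and 2.31 ± 3.79 RPKM in the ventral samples, and cer1.L 23.8 ± 20.5 RPKM dorsally and 0.641 ± 1.01 RPKM ventrally (limma adjusted p = 0.00435 and 4.39e-05 with the block). The ventral ones were tsku.L (-0.59) and dand5-like.1 (-0.25), with limma adjusted p = 0.0182 and 0.0492 with the block. The latter entered by its own symbol and is matched to human CER1. With cer1.S at 109 RPKM and the chordin transcripts at 166 to 230.5 RPKM in mean dorsal level, each chordin transcript had a higher mean than any of these 8 in dorsal lips. In the dorsal lip of experiment 1, however, cer1.S stood at 183.8 RPKM, just above chordin Xelaev18027421m at 181.9 RPKM. In those of experiments 2 and 3 cer1.S stood at 69.7 and 72.7 RPKM.

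Of 30 tested BMP target transcripts, 0 were called dorsal and 5 ventral, and 1 and 21 with the block, with a median log2 fold change of -1.99. The 5 comprised bambi.L, both sizzled copies, dlx5.S and the homeobox transcript VENTX (Xelaev18034617m, 23.6 ± 5.85 RPKM dorsally and 191 ± 26.5 RPKM ventrally). With the block the ID3 transcripts Xelaev18015089m (-2.49) and Xelaev18012086m (-2.37), encoding an inhibitor of helix-loop-helix factors that BMP signalling induces, also passed (limma adjusted p = 0.0225 and 0.0302). The 1 called dorsal was Xelaev18017847m, matched to the zinc finger gene GATA3, with a dorsal mean of 4.30 ± 1.57 RPKM and a ventral mean of 0.904 ± 1.11 RPKM (1.997 on the log2 scale, adjusted p = 0.0163 by limma with the block). The other 3 transcripts matched to GATA2 and GATA3 had positive log2 differences too, of 1.01 for Xelaev18020919m, 2.004 for Xelaev18023995m and 1.55 for Xelaev18025905m, and did not pass with the block (adjusted p = 0.131, 0.206 and 0.108). In experiments 2 and 3 alone all 4 were called dorsal (limma adjusted p = 0.000162, 0.00526, 0.000187 and 0.000636). That fit called 2.85% of all tested transcripts higher in dorsal lips. In experiment 1, however, Xelaev18023995m stood at 6.50 RPKM in the dorsal and 10.4 RPKM in the ventral lip. There Xelaev18020919m stood at 5.86 RPKM dorsally and 5.57 RPKM ventrally, and Xelaev18025905m at 9.35 and 8.08 RPKM. Xelaev18017847m stood at 6.11 RPKM in that dorsal lip and 2.18 RPKM in the ventral lip. Both sizzled copies, both bambi copies, both smad6 copies and both smad7-like copies are also counted in the lists above. The sizzled, bambi, VENTX and msx1 transcripts were also ventral lip markers, and those of TFAP2A, dlx3 and dlx5 epidermal markers. The admp copies among the ligands were also dorsal lip markers. The marker counts and the list counts are therefore not independent of each other. Of the 10 epidermal marker transcripts, 8 were lower in every dorsal than in every ventral lip, and their part in these counts was not tested.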

How the data were processed

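The authors deposited RPKM values per transcript for 7 libraries, set against JGI 9.1 gene models with human symbols from protein BLAST, per the file headers. TopHat2 2.09 and DESeq were used per the submitters' processing notes, without a stated role for each. How reads were counted, with what strand setting, and where reads matching more than 1 copy went is not given in the sources used here. Adjusted p-value and dorsal to ventral ratio in the deposited tables rest on experiments 2 and 3, per the file headers, and the correlation score was deposited by the authors without the kind of coefficient.

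RPKM values were whole multiples of 1 read, and whole reads were recovered for 100% of 35326 transcripts above 0. The tolerance of 0.001 reads was widened in proportion for transcripts with many reads. The shortest length that fitted was taken, so reads that share a factor across libraries could be recovered too low. limma 3.58.1 in R 4.3.3 (two-sided, eBayes with trend) was fitted to log2(RPKM + 0.5) of the 16514 transcripts that averaged 1 RPKM or more in the 6 lip libraries. P-values were adjusted by Benjamini-Hochberg over all of these, with a threshold of 0.05. Pairs of copies were tested as per-library differences. The scripts were tested on simulated data. The replicate numbers are experiment numbers per the file headers. Dorsal and ventral libraries of the same number deviated together (correlation of deviations 0.926, 0.881 and 0.819). Only the fits with the block took them as paired. The main fit and the fits that left out 1 library did not use this pairing. As experiments 2 and 3 also correlated across numbers (0.839 and 0.748), the check cannot tell pairing within them. The members, the lists and the tests were chosen with earlier results of these data known. Named list members are those past the test with or without the block, with other transcripts of the same gene where useful, and for likeness names come from the 5 highest r values per transcript. The GATA2- and BMP1-matched, inhbb.L and inhba.L transcripts fall outside this rule and were chosen after their values were seen.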

Additional observations from a re-analysis of the deposited data

How the results depend on the processing

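Chordin and nog.L kept their dorsal call in all 14 alternatives. The number of transcripts called between dorsal and ventral lips was 54 and became 777 with the replicate block (391 dorsal, 386 ventral), 698 in experiments 2 and 3 alone, 1641 with limma voom on recovered reads and the block, added after seeing the data, and 46 with voom alone. Leaving out 1 library gave 21 to 139. Pairs of copies called for their dorsal to ventral change numbered 2, and 4 with a pseudocount of 0.1, 10 with no filter, 220 in experiments 2 and 3 alone, 100 with the replicate block and 1 to 15 leaving out 1 library. The interaction of side and experiment was called for 107 transcripts and for 201 with voom. As a share of the mean of all dorsal lips in place of that of experiment 1, the whole embryo level was 14.8% for nog.L, 28.7% for nog.1, 44.8% for fst.L and 37.0% for fst.S.

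Directions turned only for values that did not pass without the block. Leaving out 1 library, the difference between experiments ran between -0.013 and 0.19 for Xelaev18027420m, -0.46 and 0.015 for nog.L, and -1.27 and 0.28 for nog.1. The dorsal level of fst.L over fst.S ran between -0.13 and 0.10, and that of Xelaev18027420m over Xelaev18029538m between -0.052 and 0.16. The change of Xelaev18027421m over Xelaev18029538m was -0.034 with a pseudocount of 1. The interaction turned for Xelaev18027421m (-0.16 with a pseudocount of 0.1, -0.38 with voom), fst.L (-0.031 and -1.52) and fst.S (-1.00 with voom). The cause was not tested. Ventral levels rest on few reads, which limits ratios and follistatin most. The block changed no call of these transcripts other than those given.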
